A study of Mus musculus with 6 samples.

Results

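Molecular chaperones and the folding enzymes of the endoplasmic reticulum (ER) were followed in cultured mouse astrocytes with and without the Cre recombinase. Members were taken by gene symbol: the Hsp70, Hsp110, Hsp90 and small heat shock families, the J proteins (Dnaja, Dnajb and Dnajc), the protein disulfide isomerases, the ER lectins Calr and Canx, and a short list of ER stress and heat shock factors. The array carried 92 such probes for 86 genes among its 23473 probes. Of these, 89 probes for 84 genes had a value on at least 3 of the 6 arrays in the authors' table and were kept, while Hspb3, Dnajc5b and a second Dnajb8 probe were not. The comparison covered 88 probes for 83 genes that were also above background, out of 20540 tested probes for 17138 genes. By the compartment in which the protein works, 28 of the 83 genes were assigned to the ER, 42 to the cytosol and nucleus and 8 to mitochondria. The other 5 were not assigned. Hspa1b, Hsp90ab1 and Hsf1 were not matched by symbol and were not analysed here.

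Cells of 3 arrays had been infected with a Cre lentivirus and cells of 3 arrays with a control lentivirus. All 6 came from the cortex of newborn (P0) C57BL/6J mice homozygous for a floxed allele of Chd7, a chromatin remodeller, and all were grown with 10% serum, FGF2, EGF and B-27 and harvested 3 days after infection. Only the Cre arrays had the recombinase, so its presence and the loss of Chd7 cannot be told apart. Total RNA was labelled with Cy5 and hybridised to 1-colour oligonucleotide arrays, 1 array per sample.

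Chaperones bind unfolded stretches of a protein and release them as it folds. Hsp70 proteins do so by hydrolysing ATP, J proteins bring them their clients, and Hsp110 proteins exchange their nucleotide. In the ER, disulfide isomerases form and rearrange disulfide bonds while calnexin and calreticulin hold glycoproteins by their sugars. When unfolded protein builds up there, the sensors Atf6, Ern1 and Eif2ak3 raise the expression of ER chaperones, in part through Xbp1 and through ER stress elements in their promoters. In the cytosol, heat shock factors act through heat shock elements in a comparable way. Astrocytes secrete large amounts of protein and use the ER machinery for it.

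The targeted gene came first, as a check of the labels. Chd7 probe M300016343 had log2 normalised intensities of 6.00, 5.97 and 6.01 on the Cre arrays, against 6.92, 7.50 and 6.95 on the control arrays, a difference of -1.13 ± 0.16 (SE, limma, adjusted p = 0.405). Its other probe, M400002483, differed by -0.11 ± 0.06. Between 82.8 and 87.0% of all probes lay above background in the Cre group and between 87.4 and 90.7% in the control group. Of the 92 chaperone probes, 86 to 88 did so in the Cre group and 88 or 89 in the control group. Of 11 astrocyte markers, all measured, 10 were higher on Cre arrays, with a median difference of 0.23, and 7 in the authors' table, where 10 lay above the median of all genes. Their summed level in the authors' units was 6487 to 8267 in the Cre group and 4867 to 8660 in the control group, and the smallest p values belonged to Aqp4 (0.31 ± 0.06) and Aldh1l1 (0.72 ± 0.17). Microglial markers were lower on Cre arrays in 7 of 10 measured cases, with a median of -0.14, though in 5 of 10 with the local background column, and summed to 280 to 365 against 364 to 396. Among these, C1qa differed by -0.67 ± 0.11 and Cd68 by 0.48 ± 0.08, and Itgam was not above background. Fibroblast and mural markers summed to 5728 to 9110 in the Cre group and 6279 to 10484 in the control group and were lower in 6 of 8 cases (Pdgfrb and Rgs5 had the smallest p values), neuronal markers (9; Nefm 0.39 ± 0.07, Nefl 0.16 ± 0.06) to 400 to 512 and 460 to 630, oligodendrocyte markers (8; Cnp and Pdgfra first) to 642 to 874 and 645 to 1083. Endothelial markers (3 of 6 measured, Kdr and Cdh5 first) summed to 50 to 116 and 56 to 173, and Pecam1, Tek and Cldn5 were not above background. The part these shifts have in the chaperone values was not tested, and in a culture measured in bulk, fewer cells of a type and less RNA per cell cannot be told apart.

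No chaperone gene passed the test across the array. Of the 88 probes, 0 reached an adjusted p of 0.05 (limma, Benjamini-Hochberg over 20540 probes), as was the case for 0% of all tested probes, and the smallest adjusted p was 0.405, for Dnajc3. At an unadjusted p under 0.05, 7 probes were higher on Cre arrays (7.95%, against 2.77% of all tested probes) and 2 were lower (2.27%, against 2.84%). When replicate numbers entered as a block, 11 were higher (4.52% of all tested probes) and 4 lower (4.81%), with 0 past the adjusted threshold (lowest value 0.391). Without control replicate 1 the total was 15 in place of 9. The 3 Cre arrays lay above all 3 control arrays for 10 probes (11.4%, against 5.23% of all tested probes) and below them for 5 (5.68%, against 5.30%). The split of the unadjusted calls depended on the scaling: in the authors' table, where the median of all genes itself stood at -0.17, it was 2 higher and 6 lower. Across the 83 genes, 48 had a higher and 35 a lower mean on Cre arrays, and the median difference was 0.02.

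**Figure D1:**
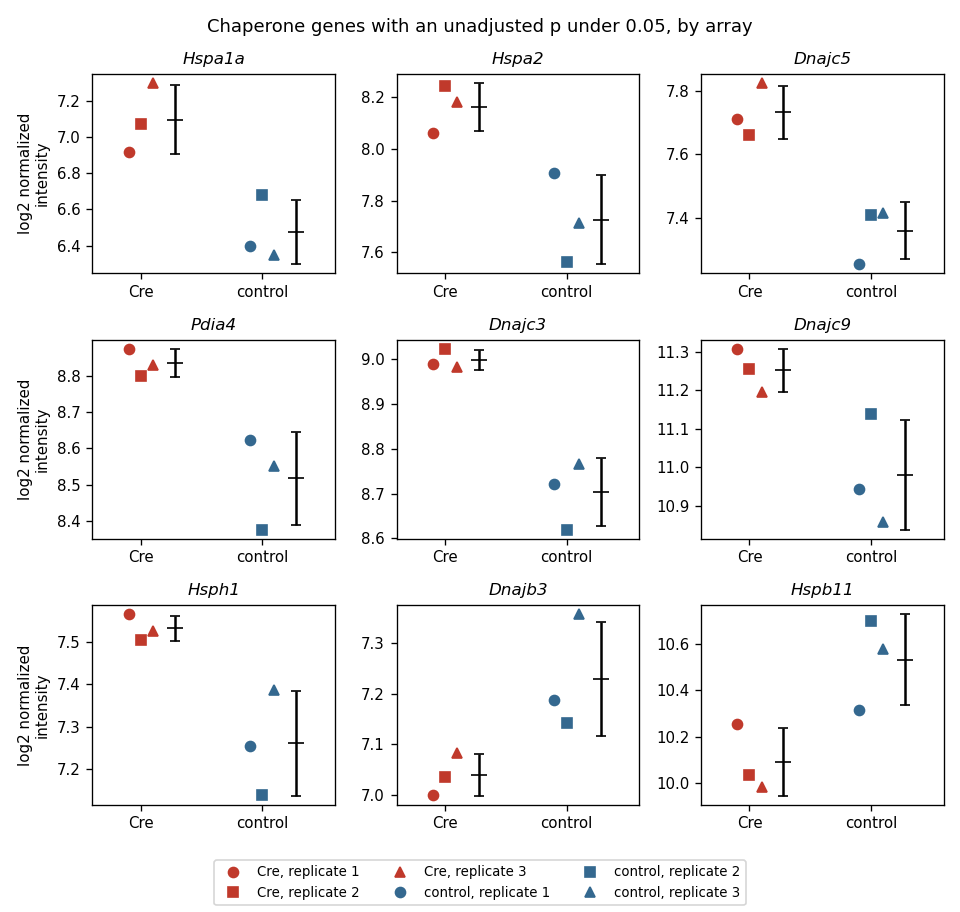
Log2 normalised intensity (vertical axis, a scale of its own in each panel) of the 9 chaperone genes with an unadjusted p under 0.05, with Cre arrays on the left and control arrays on the right of each panel. Marker shapes give the replicate number and the bar the mean and SD of 3 arrays; in all 9 panels the Cre points and the control points do not overlap, and Hspa1a, at 6.92 to 7.30 against 6.35 to 6.68, has the widest separation of means.

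**Figure D2:**
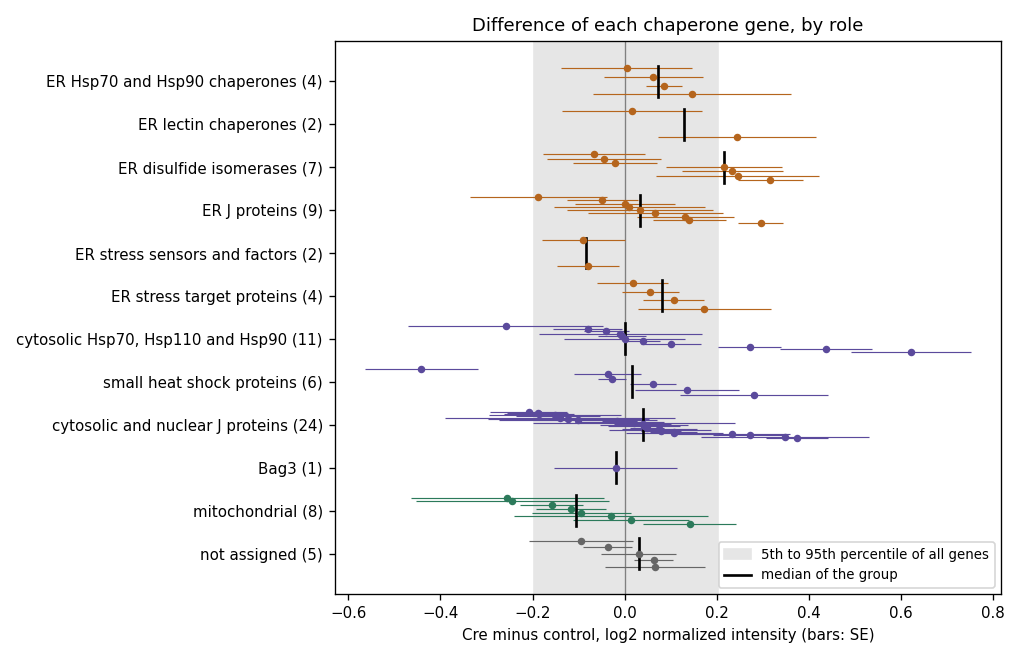
Cre minus control difference of each of the 83 genes on the log2 scale (horizontal axis, with SE bars), grouped by role, with the number of genes in brackets and a black line at each group's median. The grey band spans -0.20 to 0.20, the 5th to 95th percentile of all genes. Within 0.2 of 0 lie 64 of the 83 chaperone genes, against 15418 of all 17138 genes. The disulfide isomerases have a median of 0.22 (0.15 under median scaling, 0.03 in the authors' table).

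Promoter sequence was set beside the genes because the stress pathways act there. RefSeq promoter windows of GRCm38.p6, from 250 bases before to 50 after the start, were available for 67 of the 83 genes. An ER stress element was searched on both strands as CCAAT, any 9 bases, then CCACG. It was found for 7 of 23 ER genes (30.4%), for 0 of 37 cytosolic and nuclear genes and for 0 of 5 mitochondrial genes. Of all genes with a window 0.137% held it, and of all 32851 windows 0.119% did, as a gene can have more than 1 window. The 4 windows that hold it on the sense strand once are shown with 20 bases on either side and the fixed letters in capitals. They lie at chr14:118937807-118937865 (Dnajc3, plus strand), chr2:34772005-34772063 (Hspa5, plus), chr11:50325780-50325838 (Canx, minus) and chr12:17266471-17266529 (Pdia6, plus).
Dnajc3: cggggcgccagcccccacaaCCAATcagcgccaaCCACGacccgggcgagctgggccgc
Hspa5: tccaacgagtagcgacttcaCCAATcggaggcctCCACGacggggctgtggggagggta
Canx: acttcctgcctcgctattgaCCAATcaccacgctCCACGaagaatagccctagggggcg
Pdia6: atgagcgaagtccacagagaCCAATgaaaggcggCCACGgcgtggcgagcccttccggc
The first base of the element lay 105, 65, 145 and 98 bases before the start in the order shown. Calr and Creld2 hold the element on the opposite strand, so that it reads as CGTGG, 9 bases, ATTGG, at chr8:84847055-84847113 (minus) and chr15:88819500-88819558 (plus).
Calr: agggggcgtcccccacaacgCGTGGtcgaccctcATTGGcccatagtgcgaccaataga
Creld2: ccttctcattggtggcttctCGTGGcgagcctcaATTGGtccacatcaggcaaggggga
Hsp90b1 carries 2 copies, 1 on each strand, within chr10:86705513-86705676 (minus).
Hsp90b1: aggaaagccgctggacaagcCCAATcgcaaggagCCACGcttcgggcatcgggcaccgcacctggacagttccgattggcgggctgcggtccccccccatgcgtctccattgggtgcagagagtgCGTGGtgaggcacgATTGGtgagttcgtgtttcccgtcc
A related element (ATTGG, 1 base, CCACG) was found for 0.0444% of all genes with a window and in 0.0365% of all windows. It was found for 2 ER genes, Dnajb11 at chr16:22857832-22857882 (plus) and Herpud1 at chr8:94386357-94386407 (plus).
Dnajb11: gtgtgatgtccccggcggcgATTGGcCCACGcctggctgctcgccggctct
Herpud1: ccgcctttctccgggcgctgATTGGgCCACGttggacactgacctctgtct
The unfolded protein response element TGACGTGG was found for 0 of the 67 genes, for 0.714% of all genes with a window and in 0.676% of all windows.

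The heat shock element was searched as GAANNTTC, which holds 2 inverted units. GAANNTTC was found for 13 of the 67 genes: 0 of 23 ER genes, 11 of 37 cytosolic and nuclear genes (29.7%) and 2 of 5 mitochondrial genes (40%). Of all genes with a window 9.04% held it, and of all windows 7.86% did. A form with a further inverted unit, which contains the shorter one, was found for Dnajb6, Hspd1, Hspe1 and Hsph1. It was found for 0.662% of all genes with a window and in 0.603% of all windows. Hspa1a and Hsph1 are shown because both were among the genes with the smallest p, at chr17:34972233-34972280 and chr5:149636268-149636320, both on the minus strand, with the units in capitals.
Hspa1a: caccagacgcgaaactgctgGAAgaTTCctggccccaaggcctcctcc
Hsph1: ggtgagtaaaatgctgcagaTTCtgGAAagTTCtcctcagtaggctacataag
The Hsph1 element lay after the start, within its first 50 bases. Hspd1 and Hspe1, which encode the mitochondrial chaperonin and its partner, are neighbours on opposite strands and read the same segment, chr1:55088039-55088096, from its 2 sides.
Hspd1: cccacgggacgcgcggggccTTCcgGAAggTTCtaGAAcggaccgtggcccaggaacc
Hspe1: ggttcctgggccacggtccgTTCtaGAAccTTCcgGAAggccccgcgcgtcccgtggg
A match is a description of these letters and not a binding site shown here.

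The ER genes were higher on Cre arrays in 21 of 28 cases, but in 14 of 28 under median scaling and in 8 of 28 in the authors' table, where 21 of 28 lay above the median of all genes. Their median difference was 0.06, against 0.0036 under median scaling and -0.11 in the authors' table, 0.06 above the median of all genes there. For all genes on the array the median was -0.0003 and 49.8% were higher. ER differences ran from -0.19 for Dnajc1 to 0.32 for Pdia4, and 0 passed the adjusted threshold. The medians of the 3 same-numbered pairs were 0.05, 0.10 and 0.12, and 10 of the 28 genes (35.7%, against 14.9% of all genes) were higher in all 3 pairs. Without Cre replicate 1 the ER median was 0.04 and without control replicate 1 it was 0.09.

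Among the disulfide isomerases and reductases, 4 of 7 genes were higher with each of the quantile, median and authors' scalings, and the group median was 0.22, 0.15 and 0.03 in that order. Pdia4 (ERp72) had log2 intensities of 8.87, 8.80 and 8.83 on Cre arrays, against 8.62, 8.38 and 8.55 on control arrays. The groups did not overlap, and the difference of 0.32 ± 0.07 (SE) had an unadjusted p of 0.0051 and an adjusted p of 0.590 (limma). In the authors' table Pdia4 had values of 245, 203 and 237 on Cre arrays and 198, 195 and 205 on control arrays, which overlap. Dnajc10 (ERdj5), a reductase with a J domain, had 9.11, 8.69 and 8.82 on Cre arrays and 8.64, 8.599 and 8.69 on control arrays. Its lowest Cre array and highest control array read the same at 2 decimals, and the difference was 0.23 ± 0.11 (unadjusted p = 0.0807). Pdia3 (ERp57), which works with calnexin and calreticulin, had 11.93, 11.91 and 11.86 on Cre arrays and 11.97, 11.59 and 11.50 on control arrays, with control replicate 1 above all Cre arrays. P4hb, the classical protein disulfide isomerase, had 11.33, 10.99 and 11.04 on Cre arrays and 11.17, 11.33 and 10.995 on control arrays, a difference of -0.04 ± 0.12. Pdia6 had 11.02, 10.91 and 10.90 on Cre arrays and 10.97, 11.13 and 10.80 on control arrays, a difference of -0.02 ± 0.09. For these 2 genes the groups overlapped fully. Pdia5 was higher in each same-numbered pair, by 0.35, 0.24 and 0.14, with a difference of 0.24 ± 0.18 (unadjusted p = 0.219, or 0.0125 with the replicate block). Pdia2 differed by -0.07.

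The J proteins of the ER were higher in 7 of 9 cases with a median of 0.03, but in 4 of 9 under median scaling and 1 of 9 in the authors' table, where 7 of 9 lay above the median of all genes. Dnajc3 (P58IPK), which assists BiP and is known as an inhibitor of the kinase Eif2ak3, had the smallest p of all members. Its brighter probe read 8.99, 9.02 and 8.98 on Cre arrays, against 8.72, 8.62 and 8.77 on control arrays, a difference of 0.30 ± 0.05 (unadjusted p = 0.00115, adjusted p = 0.405, limma). The groups did not overlap, but the second Dnajc3 probe differed by only 0.07 ± 0.13, and the authors' values of the first, 266, 241 and 266 on Cre arrays and 213, 237 and 244 on control arrays, overlapped. Dnajb11 (ERdj3) had 9.93, 9.91 and 9.79 on Cre arrays and 9.85, 9.77 and 9.59 on control arrays. It was higher in each same-numbered pair, with a difference of 0.14 ± 0.08 (unadjusted p = 0.132, or 0.0326 with the replicate block). Dnajb9 (ERdj4), which is induced in ER stress, had 7.98, 8.22 and 8.27 on Cre arrays and 7.90, 8.37 and 8.01 on control arrays, and the groups overlapped.

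Of the ER Hsp70 and Hsp90 chaperones, all 4 had a difference above 0, with a median of 0.07, but only 2 of 4 under median scaling and 1 of 4 in the authors' table, where all 4 lay above the median of all genes. With the local background column 1 of 4 was higher, with a median of -0.16, and 1 lay above the median of all genes. Hspa5 (BiP), the main Hsp70 of the ER, had 12.26, 12.52 and 12.66 on Cre arrays and 12.47, 12.34 and 12.44 on control arrays, a difference of 0.06 with a 95% interval of -0.21 to 0.33. Its Cre arrays lay on both sides of the control arrays. Hsp90b1 (Grp94) had 12.09, 12.02 and 11.72 on Cre arrays and 11.82, 12.17 and 11.39 on control arrays, a difference of 0.15 with an interval of -0.39 to 0.68. Hyou1 (Grp170), which exchanges the nucleotide of BiP, was close to background, with 6.08, 6.07 and 6.12 on Cre arrays and 6.03, 5.96 and 6.04 on control arrays. These Hyou1 groups did not overlap, and the difference was 0.08 ± 0.04 (unadjusted p = 0.0769). The fourth, Hspa13, differed by 0.004.

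Both lectin chaperones had a difference above 0, but 1 of the 2 under median scaling and in the authors' table, where both lay above the median of all genes. Canx (calnexin) had 10.86, 10.76 and 10.40 on Cre arrays and 10.68, 10.42 and 10.18 on control arrays. The groups overlapped, yet each Cre array was above the control array of its number, by 0.17, 0.34 and 0.22. The difference was 0.24 ± 0.17, with an unadjusted p of 0.209, or 0.00912 with the replicate block, which left the adjusted p at 0.400. Calr (calreticulin) had 8.81, 8.54 and 8.52 on Cre arrays and 8.68, 8.82 and 8.32 on control arrays, a difference of 0.02 ± 0.15.

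Both transcription factors of the ER stress response had differences below 0, also under median scaling and in the authors' table, but above 0 with the local background column. Xbp1 had 9.25, 9.11 and 9.25 on Cre arrays and 9.45, 9.15 and 9.29 on control arrays, a difference of -0.09 ± 0.09 that was below 0 in each pair. Atf6 had 6.58, 6.58 and 6.61 on Cre arrays and 6.53, 6.77 and 6.71 on control arrays, a difference of -0.08 ± 0.07. In neither gene did the groups separate. The sensor Ern1 (IRE1) was above background on 0 Cre arrays and 2 control arrays and was not tested, with 5.73, 5.72 and 5.68 on Cre arrays and 5.76, 5.71 and 5.70 on control arrays. Splicing of Xbp1 and cleavage of Atf6, by which these proteins are activated, are not measured by these probes.

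The 4 ER stress target proteins had differences above 0, with a median of 0.08, but 3 of 4 did under median scaling and 1 of 4 in the authors' table, where all 4 lay above the median of all genes. With the local background column 2 of 4 were higher, with a median of -0.11. None of the 4 genes separated the groups. Creld2, an ER stress-inducible protein, had 8.67, 8.70 and 8.87 on Cre arrays and 8.66, 8.69 and 8.58 on control arrays, a difference of 0.11 ± 0.07. Sdf2l1, a partner of ERdj3, had 7.70, 7.62 and 7.79 on Cre arrays and 7.65, 7.22 and 7.72 on control arrays, a difference of 0.17 ± 0.14 in which control replicate 2 was lowest. Manf, a secreted ER stress protein, had 11.83, 11.72 and 11.63 on Cre arrays and 11.72, 11.64 and 11.64 on control arrays, a difference of 0.06 ± 0.06. Both groups were thus within a narrow range. Herpud1, which acts in ER-associated degradation, had 7.83, 7.78 and 7.72 on Cre arrays and 7.82, 7.61 and 7.85 on control arrays, a difference of 0.02 ± 0.08.

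In a fixed list of 44 further ER folding, translocation, quality control and stress genes that are not members, 26 were higher and 18 lower on Cre arrays, with a median of 0.02, while 22 were higher under median scaling and 12 in the authors' table, where 26 lay above the median of all genes. With the local background column 19 were higher, with a median of -0.15, and 19 lay above the median of all genes. Of the 44 genes 0 passed the adjusted threshold. At an unadjusted p under 0.05, 5 were higher and 3 lower (18.2% of the list, against 5.85% of all genes). Sec61a1, the pore of the ER translocon, had 9.61, 9.23 and 9.47 on Cre arrays and 8.92, 8.92 and 8.97 on control arrays, a difference of 0.50 ± 0.10 (adjusted p = 0.537, limma). Atf4, the transcription factor translated when eIF2 alpha is phosphorylated, had 10.36, 10.75 and 10.36 on Cre arrays and 11.02, 11.10 and 11.04 on control arrays, a difference of -0.56 ± 0.12 (adjusted p = 0.537). Both genes separated the groups completely. The authors' values also did so for Atf4. Those of Sec61a1, 420, 278 and 387 on Cre arrays and 250, 299 and 289 on control arrays, overlapped. The other 6, named after their values were seen, were Sel1l (0.45), Wfs1 (0.24), Ufd1 (0.13) and Ssr1 (0.13), which were higher, and Trib3 (-0.53) and Chac1 (-0.67), which were lower. The related stress genes Ddit3 (-0.39), Ppp1r15a (-0.18) and Atf3 (-0.002) of the same list did not separate the groups. Ppp1r15a was lower in each same-numbered pair (-0.25, -0.17 and -0.13), with an unadjusted p of 0.579, or 0.0133 with the replicate block (limma). Ddit3 was also lower in each pair (unadjusted p = 0.116, or 0.124 with the block), and Atf3 was not.

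**Figure D3:**
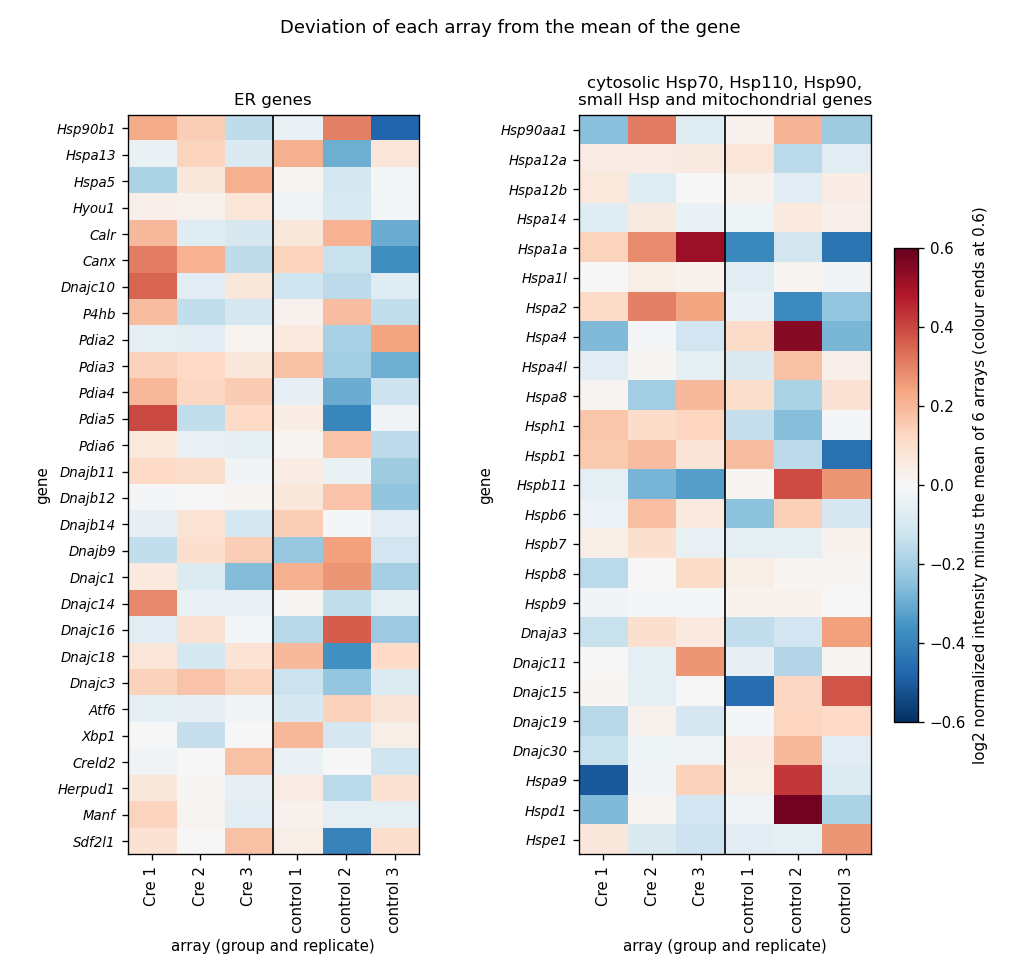
Deviation of each array from the mean of 6 arrays for each gene (colour, log2 scale, ending at 0.6), with Cre arrays left of the line and control arrays right of it; ER genes are in the left panel and cytosolic Hsp70, Hsp110 and Hsp90, small heat shock and mitochondrial genes in the right panel. Control replicate 2 is the lowest array for 11 and the highest for 9 of the 28 ER genes, and the highest for 4 of the 8 mitochondrial genes.

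The ER genes spread more among control arrays than among Cre arrays. The SD was larger in the control group for 21 of 28 ER genes (75.0%) and for 67.5% of the 83 genes, against 56.2% of all genes. The median SD on Cre and control arrays was 0.099 and 0.17 for the ER genes and 0.098 and 0.15 for the 83 genes. For all genes on the array it was 0.076 and 0.088. Control replicate 2 was the lowest of the 6 arrays for 11 ER genes (39.3%, against 22.0% of all genes) and the highest for 9 (32.1%, against 22.7%). Control replicate 3 was the lowest for 9 (32.1%, against 16.4%).

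In the cytosol and nucleus, 22 genes were higher and 20 lower on Cre arrays, with a median of 0.03, while 13 were higher in the authors' table, with a median of -0.09, and 25 lay above the median of all genes there. The Hsp70, Hsp110 and Hsp90 group held 3 of the 7 members that were higher at an unadjusted p under 0.05, although its median over 11 genes was -0.0002. Hspa1a, the stress-inducible Hsp70, had 6.92, 7.07 and 7.30 on Cre arrays, against 6.40, 6.68 and 6.35 on control arrays. This was the largest difference among the 83 genes, 0.62 ± 0.13 or 1.54-fold (unadjusted p = 0.0037, adjusted p = 0.564, limma). The authors' values were 43, 43 and 63 on Cre arrays and 21, 35 and 19 on control arrays, and they too did not overlap. Hspa1a has a near-identical copy, Hspa1b, so the probe may read both. Across the processing settings its difference ran from 0.16 with the local background column to 1.17 with plain subtraction of the blank mean.

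Hspa2, an Hsp70 best known from testis, had 8.06, 8.25 and 8.18 on Cre arrays and 7.91, 7.56 and 7.71 on control arrays, a difference of 0.44 ± 0.10 (adjusted p = 0.616, limma). Its unadjusted p stayed under 0.05 in all 17 settings. Hsph1 (Hsp105), the stress-inducible Hsp110, had 7.56, 7.50 and 7.53 on Cre arrays and 7.25, 7.14 and 7.39 on control arrays, a difference of 0.27 ± 0.07 (adjusted p = 0.641) that was -0.25 with the local background column. Of the 7 genes higher at an unadjusted p under 0.05, the authors' values separated the groups for 2, Hspa1a and Hspa2. Hspa8, the constitutive Hsc70, had 14.12, 13.90 and 14.30 on Cre arrays and 14.21, 13.92 and 14.19 on control arrays, a difference of -0.0002 with a 95% interval of -0.33 to 0.33. Hsp90aa1, the inducible Hsp90, had 13.42, 13.99 and 13.60 on Cre arrays and 13.70, 13.88 and 13.46 on control arrays, a difference of -0.01 with an interval of -0.45 to 0.43. The intervals of these abundant chaperones leave differences of that size undetermined. The remaining 6 genes of the group ran from -0.26 for Hspa4 to 0.10 for Hspa12a.

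Cytosolic and nuclear J proteins were higher in 14 of 24 cases, with a median of 0.04, and in 6 of 24 in the authors' table, where 14 lay above the median of all genes. Dnajc5 (cysteine string protein), a chaperone of synaptic and secretory vesicles, had 7.71, 7.66 and 7.83 on Cre arrays and 7.25, 7.41 and 7.41 on control arrays. The groups did not overlap and the difference was 0.37 ± 0.07 (unadjusted p = 0.00178, adjusted p = 0.4999, limma), but it was -0.22 with the local background column. Dnajc9, a histone chaperone, had 11.31, 11.26 and 11.20 on Cre arrays and 10.94, 11.14 and 10.86 on control arrays, a difference of 0.27 ± 0.08 (adjusted p = 0.734) that was -1.26 with the local background column. Dnajb1 (Hsp40), the heat-inducible partner of Hsp70, had 9.53, 9.70 and 9.53 on Cre arrays and 9.62, 9.21 and 9.22 on control arrays, a difference of 0.23 ± 0.13, and control replicate 1 lay among the Cre arrays. Dnaja1 had 8.92, 9.08 and 9.01 on Cre arrays and 9.06, 9.33 and 9.05 on control arrays, a difference of -0.14 ± 0.09. Dnajb3, named after its value was seen, was lower on each Cre array, at 7.001, 7.04 and 7.08 against 7.19, 7.14 and 7.36 on control arrays, a difference of -0.19 ± 0.07 (adjusted p = 0.799). A second kept probe had the other sign for Dnajc13, Dnajb6 and, in the ER group, Dnajc14.

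The small heat shock proteins lay on both sides of 0, with 3 of 6 higher, and 2 of 6 under median scaling. Hspb11 (Ift25), a component of intraflagellar transport despite its name, had 10.26, 10.03 and 9.98 on Cre arrays, against 10.32, 10.70 and 10.58 on control arrays. The groups did not overlap, also in the authors' values, and the difference of -0.44 ± 0.12 was the lowest of the 83 genes (unadjusted p = 0.0127, adjusted p = 0.704, limma). Hspb1 (Hsp25) had 10.41, 10.43 and 10.33 on Cre arrays and 10.43, 10.09 and 9.80 on control arrays, a difference of 0.28 ± 0.16, with control replicates 2 and 3 below all Cre arrays. The Hspb1 difference was -1.02 with the local background column. Bag3, which links Hsp70 to small heat shock proteins and autophagy, had 8.30, 7.93 and 7.93 on Cre arrays and 8.11, 8.22 and 7.89 on control arrays, a difference of -0.02 ± 0.13. In a fixed list of 33 cytosolic co-chaperone, chaperonin and prefoldin genes, 12 were higher and 21 lower on Cre arrays with a median of -0.02 (4 higher in the authors' table, where 12 lay above the median of all genes), and 0 passed the adjusted threshold. The chaperonin subunit Cct2 differed by -0.19 ± 0.06 and the prefoldin subunit Pfdn2 by 0.16 ± 0.05.

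The mitochondrial chaperones were lower on Cre arrays in 6 of 8 cases, with a median of -0.11, in 7 of 8 under median scaling and in the authors' table (where 6 lay below the median of all genes), and in 5 of 8 with the local background column. At an unadjusted p under 0.05 there were 0. The median was -0.18 without control replicate 1, -0.06 without control replicate 3 and -0.04 without control replicate 2, so its size depended on single control arrays. Hspa9 (mortalin), the Hsp70 that draws proteins into the matrix, had 10.07, 10.56 and 10.71 on Cre arrays and 10.61, 11.001 and 10.50 on control arrays, a difference of -0.26 ± 0.21. Hspd1 (Hsp60) had 11.43, 11.71 and 11.58 on Cre arrays and 11.67, 12.27 and 11.51 on control arrays, a difference of -0.24 ± 0.21. In both genes control replicate 2 was the highest array. Hspe1 (Hsp10), the lid of the Hsp60 chamber, had 9.94, 9.79 and 9.75 on Cre arrays and 9.81, 9.82 and 10.14 on control arrays, a difference of -0.09 ± 0.11. Dnajc19, a J protein of the import motor, had 6.52, 6.71 and 6.58 on Cre arrays and 6.67, 6.82 and 6.81 on control arrays. It was lower in each pair, with a difference of -0.16 ± 0.07 (unadjusted p = 0.0633, or 0.022 with the replicate block). Dnajc30 had 8.74, 8.85 and 8.85 on Cre arrays and 8.92, 9.06 and 8.81 on control arrays, a difference of -0.12 ± 0.08. Dnajc11, of the cristae organising machinery, had 7.999, 7.94 and 8.26 on Cre arrays and 7.94, 7.82 and 8.01 on control arrays, a difference of 0.14 ± 0.10. Dnaja3 (Tid1), a J protein of the matrix, had 8.01, 8.24 and 8.20 on Cre arrays and 7.998, 8.03 and 8.39 on control arrays, a difference of 0.01 ± 0.13. In none of these genes did the groups separate. Of 14 other mitochondrial import and protease genes in a fixed list, 2 were higher and 12 lower with a median of -0.05. The protease Clpp had the smallest p, at 10.23, 10.21 and 10.30 on Cre arrays and 10.45, 10.52 and 10.40 on control arrays, a difference of -0.21 ± 0.05 (adjusted p = 0.588, limma), and the import receptor Tomm70a differed by -0.12 ± 0.08. The 5 genes not assigned to a compartment ran from -0.10 to 0.07. They include Dnajc19-ps and Hspd1-ps3, pseudogenes whose probes may read the parent gene.

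**Figure D4:**
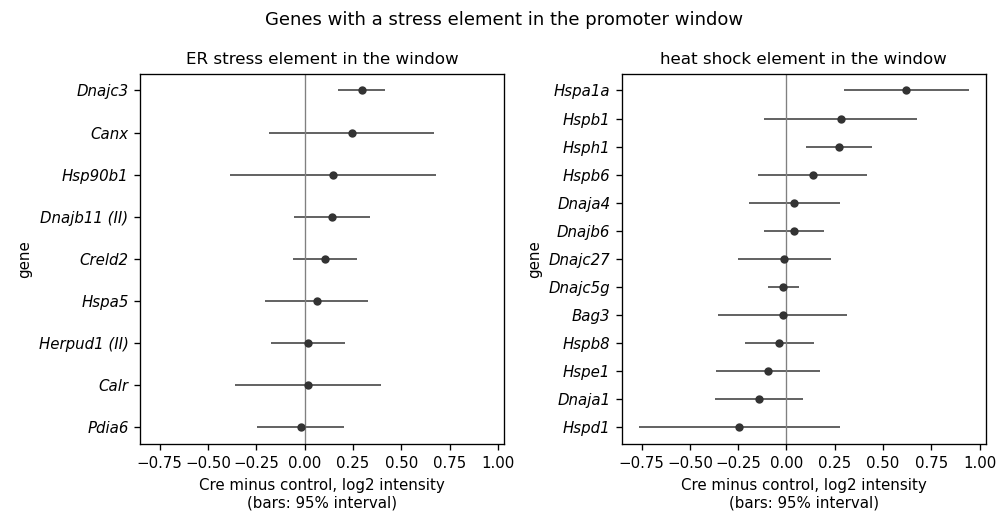
Cre minus control difference on the log2 scale (horizontal axis, with 95% intervals) of the genes with a stress element in the promoter window. The left panel holds genes with an ER stress element, II marking the related element, and the right panel those with a GAANNTTC heat shock element. Of the 7 genes with the first ER stress element 6 lie above 0, with a median of 0.11 (4 under median scaling, 2 in the authors' table, where 6 lay above the median of all genes). With the local background column 3 of the 7 were higher, and 3 lay above the median of all genes. The 13 heat shock element genes lie on both sides of 0, with Hspa1a farthest to the right at 0.62.

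Beside the sequences shown above, the 7 genes with the first ER stress element had a median difference of 0.11, with 6 higher and 1 lower, though 4 were higher under median scaling and 2 in the authors' table, where 6 lay above the median of all genes. They ranged from -0.02 for Pdia6 to 0.30 for Dnajc3. The 16 other ER genes with a window had a median of 0.04, with 11 higher and 5 lower, and include Pdia4. The 13 genes with a GAANNTTC match had a median of -0.01, with 6 higher and 7 lower, and ran from -0.24 for Hspd1 to 0.62 for Hspa1a. The 31 genes outside the ER group with a window and no GAANNTTC match had a median of 0.01, with 16 higher and 15 lower. The difference between genes with and without an element was not tested.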

How the data were processed

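Total RNA of 6 cultured astrocyte samples was hybridised to 1-colour arrays. The deposited scanner files hold, per the file headers, a median intensity and a local background intensity for each spot, with no subtraction. A table deposited by the authors gives processed intensity values on a linear scale, and each of its columns has a median of 25. The sources used here do not say how it was made. No genome build is named. Gene symbols came from the platform annotation: 20690 probes had 1 symbol and 2783 were unnamed. Through Entrez identifiers 20556 probes matched RefSeq's table (GRCm38.p6) and 0 symbols changed.

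Intensities were corrected by normexp against 2736 blank spots (limma 3.58.1 in R 4.3.3, offset 50), log2 transformed and quantile normalised, which compresses differences of dim probes. The local background column was used only as an alternative because it followed the spot. For the brightest spots it was 52.0, 95.3 and 60.1% of the spot value on Cre replicates 1, 2 and 3. On control replicates 1, 2 and 3 it was 55.8, 30.7 and 34.5%. The local background around probes was higher on every Cre array (266, 322 and 267) than on any control array (232, 194 and 179). Marked spots (0 to 9 per array) were left out. Probes above the blank mean by 2 SD on at least 3 of the 6 arrays were tested, 20540 in number, with lmFit and eBayes (two-sided) and Benjamini-Hochberg adjustment at 0.05. The fit was tested on simulated data. The number of arrays limits the precision. The smallest p of an exact permutation test with 3 arrays a group is 0.1. No label states separate cultures or animals for the replicates, and p-values therefore reflect only the spread among these samples, which could be technical.

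Same-numbered arrays deviated together, with correlations of 0.498, 0.425 and 0.436 over all probes. The labels state no shared litter or day. SEs, intervals and p-values come from the fit without a block unless the replicate block is named, which was run as an alternative.

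The brightest kept probe stood for a gene. Values of every array are given for the 6 genes with the smallest p in each compartment and for a fixed list of well-known chaperones, and the 2 genes with the smallest p are named from each other list. The members, gene lists and rules were chosen with earlier results of these data known. Promoter windows were RefSeq's for GRCm38.p6. Alternatives were the background correction, offset, scaling, filters, the authors' table, averaging of probes, the replicate block and leaving out each array.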

Additional observations from a re-analysis of the deposited data

How the results depend on the processing

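With 3 arrays a group, the 95% interval of most chaperone genes spans both directions, and genes close to background, such as Hyou1, have compressed differences. The count of chaperone probes past the adjusted threshold was 0 in all settings that gave one. The count at an unadjusted p under 0.05 was 9, became 15 with the replicate block and ran from 8 (without Cre replicate 1) to 15 (without control replicate 1) when single arrays were left out. The replicate block changed no call at the adjusted threshold. Averaging all probes of a gene gave no probe counts.

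The ER median of 0.06 was 0.12 with the local background column, 0.0036 with median scaling and, in the authors' table, -0.11 over the 28 genes or -0.12 with Ern1, which has values there, and 0.04 to 0.09 with single arrays left out. The cytosolic and nuclear median of 0.03 was -0.01 with the local background column, 0.0085 with median scaling and -0.094 in the authors' table. With single arrays left out it was 0.02 to 0.05. The mitochondrial median of -0.11 was -0.23, -0.18 and -0.31 in those 3 settings and -0.18 to -0.045 with single arrays left out. In the authors' table the median of all genes was -0.17, and relative to it the ER (28 genes), cytosolic and nuclear and mitochondrial medians were 0.06, 0.07 and -0.14. The local background column turned Dnajc5 to -0.22, Dnajc9 to -1.26 and Hsph1 to -0.25. It changed the sign of 18 of 38 named genes, the authors' table that of 9 and median scaling that of 4. The cause of these shifts was not tested.

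The Chd7 probe M300016343 stayed between -1.24 and -0.95 with single arrays left out.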
